A study of Homo sapiens with 10 samples.

Results

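The genes described are those of the cytosolic ribosomal proteins in the human colorectal carcinoma line HCT116 with YTHDF1 knocked down. They were chosen by symbol from the expression table: RPL or RPS followed by a digit, RPSA, RPLP0, RPLP1 and RPLP2, without the RPS6K kinases. The rule took 50 of the 6914 genes with an intact name, 30 with RPL symbols and 19 with RPS symbols that were set down as large and small subunit, and RPS19BP1. RPS19BP1 encodes a protein that binds RPS19 and is not itself a ribosomal subunit. RPL22L1, RPL36AL and RPS27L are close relatives of RPL22, RPL36A and RPS27. RefSeq holds 91 protein-coding symbols that meet the rule, and the other 41, RPL4, RPL10, RPS2 and RPS6 among them, had no row in the expression table and were not analysed here.

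Ribosome profiling, which sequences the mRNA fragments covered by ribosomes, was done on HCT116 cells expressing the YTHDF1 hairpin shY1-1 (knockdown library 1), on cells expressing shY1-2 (knockdown library 2) and on cells expressing a control hairpin against GFP, with 1 library each, and mRNA-seq covered the same 3 conditions. An RNA immunoprecipitation (RIP) with a YTHDF1 antibody and its whole-cell input had 1 library each, and m6A-seq had 2 replicates, all from control HCT116 cells. All 10 samples were labelled as treated with cycloheximide, which halts elongating ribosomes, at 100 ug/ml for 3 min. The genotype label gives only shY1 for both knockdown libraries, so it is not settled whether these are different hairpins, and no label says that libraries came from separate cultures.

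Ribosomal proteins line the ribosomal RNA of the large and small subunit, and cells make them in matched amounts. Their mRNAs are among the most abundant of growing cells and begin with a 5' terminal oligopyrimidine (TOP) tract, a C followed by a run of C and T bases, through which mTOR signalling and LARP1 control their translation. Many of their introns carry small nucleolar RNAs (snoRNAs), which guide chemical modification of ribosomal RNA, the C/D box class for methylation and the H/ACA class for pseudouridine. YTHDF1 is a cytoplasmic protein that binds mRNA at N6-methyladenosine (m6A) and is known as a promoter of translation. Ribosomal protein genes also have many processed pseudogenes and close copies. No source used here says how reads shared with those were assigned, so each level below is uncertain by that much.

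The start of the transcript is the sequence this family is best known for, and it was read from RefSeq promoters (GRCh38.p14) as 20 bases before and 20 bases from the annotated start. The tract was searched on the transcript strand as a C followed by at least 4 bases that were each C or T, beginning within 5 bases of the start. Where several positions qualified, the one nearest to the start was taken, so a run that extends farther upstream is marked only from there. It was found in 33 of the 42 members with a promoter entry (78.6%), and in 7408 of 35116 promoters of all genes (21.1%). In 26 of the 33 the annotated start was itself a qualifying position. Counted from the position taken, the length had a median of 7 and a range of 5 to 14 bases. Large-subunit members held it in 21 of 26 promoters, small-subunit members in 12 of 16, mitochondrial ribosomal proteins in 7 of 43 and other mRNAs of the TOP class in 10 of 13. RPL5, RPL23, RPL23A and RPS19BP1 were among the members without a promoter entry. The windows below include those of the longest tracts so counted (RPS24, RPLP2). They also include the members whose footprints were lowest in the knockdown relative to the control (RPL3, RPSA, RPL22, RPL27A). Further windows are those of the strongest m6A listings (RPL41, RPS28) and of the member on the RIP list (RPL29). RPS27L and RPS15 are shown as members in which no tract begins within 5 bases of the start. Capitals mark the tract.
RPS24: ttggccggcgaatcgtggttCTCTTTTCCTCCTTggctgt
RPLP2: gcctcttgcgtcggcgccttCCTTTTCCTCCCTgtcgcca
RPL3: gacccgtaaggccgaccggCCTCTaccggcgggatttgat
RPSA: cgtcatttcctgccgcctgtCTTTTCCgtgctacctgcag
RPL22: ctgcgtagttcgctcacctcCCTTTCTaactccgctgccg
RPL27A: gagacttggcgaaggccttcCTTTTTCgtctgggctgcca
RPL41: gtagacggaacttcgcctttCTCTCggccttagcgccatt
RPS28: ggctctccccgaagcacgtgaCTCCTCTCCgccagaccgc
RPL29: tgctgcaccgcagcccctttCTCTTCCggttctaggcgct
RPS27L: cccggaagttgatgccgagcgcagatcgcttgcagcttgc
RPS15: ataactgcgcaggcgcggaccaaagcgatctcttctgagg

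The windows lie at chr10:78033843-78033882 (RPS24), chr11:809947-809986 (RPLP2), chr3:39406700-39406739 (RPSA), chr11:8682772-8682811 (RPL27A), chr12:56116613-56116652 (RPL41), chr19:8321476-8321515 (RPS28) and chr19:1438376-1438415 (RPS15) on the plus strand. Those of RPL3, RPL22, RPL29 and RPS27L lie at chr22:39319604-39319643, chr1:6199576-6199615, chr3:51995876-51995915 and chr15:63157458-63157497 on the minus strand. In RPS15 and RPS27L no such run begins within 5 bases of the annotated start. Runs farther from the start, such as one in the RPS15 window, were not counted.

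The expression table holds a relative abundance per gene whose unit the header does not name. The depth of reading per value is therefore unknown, as is any correction for transcript length, so a gene's place by mRNA value is its place in this table and not a level per length. Its footprint values summed to between 938928 and 1227324 per library and its mRNA values to between 339763 and 345044. YTHDF1 had footprint values of 17.0 and 19.9 in the knockdown libraries and 61.4 in the control, and mRNA values of 8.62 and 7.81 in the knockdown libraries and 27.4 in the control. Epithelial markers were in the table for 6 of 7 listed genes, with EPCAM mRNA of 157 and 141 in the knockdown libraries and 142 in the control. The keratins differed more between libraries: KRT18 mRNA was 1082 and 527 in the knockdown libraries and 636 in the control, and KRT8 and KRT19 were likewise highest in knockdown library 1, at 2142 and 2095, against 1529 and 1590 in the control. Fibroblast and blood markers were in it for 1 of 5 each, COL1A1 with mRNA of 1.35 to 2.36 and footprint values of 13.2 and 3.71 in the knockdown libraries and 0.631 in the control, and CD68 with mRNA of 4.98 to 19.9 but footprint values of 9485 to 15090. The part of such cells in the results was not tested. In bulk libraries fewer cells with a transcript and less of it per cell cannot be told apart. All 50 members passed the filter on low values (a mean log2(value + 1) of at least 1), and 49 of the 50 were in the top decile of control mRNA values, RPS27L being the exception.

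The first question was how heavily ribosomes occupied these mRNAs in unperturbed cells, measured as the footprint value over the mRNA value in the control libraries, here called translation efficiency. With 1 control library per assay these ratios are descriptions without a replicate. The members did not stand apart from other genes by their median: it was 1.91 for the ratio, against 2.32 over all 6782 genes tested, and 23 of 50 lay above the median of all genes. They were instead spread widely, with 13 in the highest quartile of all genes and 17 in the lowest. On the log2(value + 1) scale the members' median efficiency was 0.39 in knockdown library 1, 0.88 in knockdown library 2 and 0.93 in the control, and that of all genes was 0.90, 0.71 and 1.08 in the same order.

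**Figure D1:**
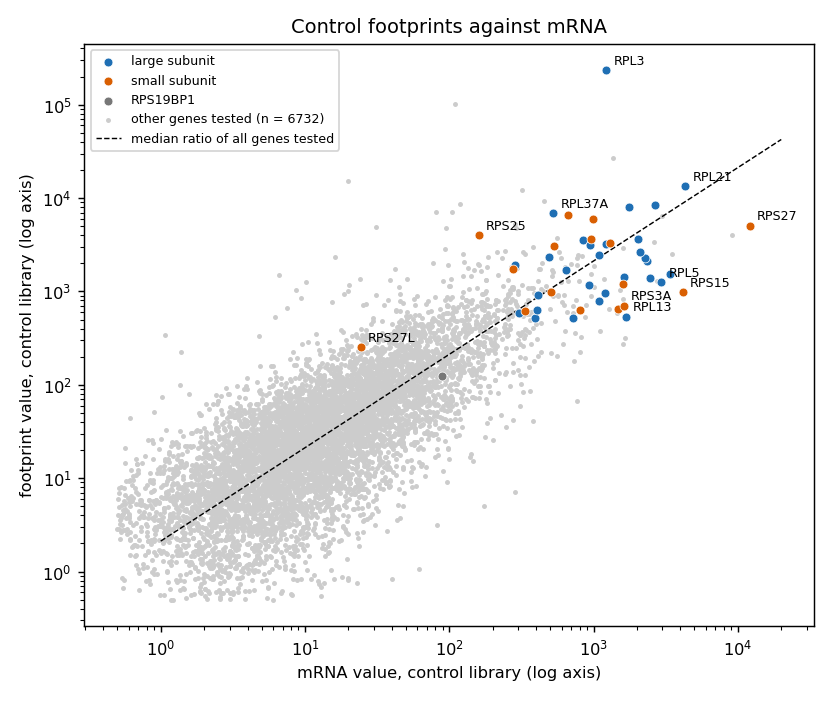
Each point is a gene (46 of the 50 ribosomal protein genes are drawn), with its control mRNA value on the x axis and its control footprint value on the y axis (both relative units, log axes), and the dashed line is the median efficiency of all genes tested. RPL3 lies highest at a footprint value of 232668, while RPS15 and RPL13 lie farthest below the line among the ribosomal protein genes.

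RPL3, a large-subunit protein near the peptidyl transferase centre, was the extreme case. Its footprint value was 67212 in knockdown library 1, 120165 in knockdown library 2 and 232668 in the control, while its mRNA values were 963, 1042 and 1223. Its control ratio was 190, a place at percentile 99.96 among the genes tested. RPL3 alone made up 7.16% and 11.5% of the summed footprint values in the knockdown libraries and 18.96% in the control, but 0.279% and 0.307% of the mRNA values in the knockdown libraries and 0.359% in the control. The gene (chromosome 22, 39312882 to 39319623) has 4 RefSeq snoRNA genes in its span, SNORD83B, SNORD83A, SNORD139 and SNORD43. Whether fragments of these RNAs are among its footprints was not tested, since the table gives only a value per gene.

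High ratios were also found for RPS25, RPL37A and RPS27L. RPS25, a small-subunit protein that some viral internal ribosome entry sites need, had ratios of 13.1 and 17.5 in the knockdown libraries and 25.2 in the control. RPL37A had ratios of 9.72 and 15.7 in the knockdown libraries and 13.0 in the control. RPS27L, whose gene is a known target of p53, had 7.46 and 9.40 in the knockdown libraries and 10.4 in the control. All of these lay at percentile 94.3 or above in each of the 3 library pairs. None of these 3 has a snoRNA gene in its span.

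At the low end stood RPS15, RPL13, RPS27, RPL5 and RPS3A. RPS15, a protein of the small-subunit head, had ratios of 0.247 and 0.183 in the knockdown libraries and 0.235 in the control, at or below percentile 2.46 each time. RPL13 had 0.158 and 0.324 in the knockdown libraries and 0.321 in the control, and RPS27 had 0.261 and 0.287 in the knockdown libraries and 0.420 in the control. RPS27 had mRNA values of 15676 and 11906 in the knockdown libraries and 12080 in the control. RPL5 and RPS3A stood at 0.427 and 0.436 in the control, but their places moved with the library: RPL5 was at percentiles 19.1 and 59.4 in the knockdown libraries and at 5.75 in the control. The members with a TOP tract within 5 bases of the annotated start had a median control efficiency of 1.19 on the log2 scale. The 9 members without one there had -0.33, a description of small sets. Among those 9, RPS15, RPS26, RPL9, RPS27A and RPL27 have such a run farther downstream in their windows. The split thus depends on where the start is annotated and does not separate members with and without a tract.

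The second comparison asked which of these mRNAs carried more or fewer footprints after YTHDF1 knockdown. No member passed in limma after Benjamini-Hochberg adjustment over all genes tested, at the threshold of 0.05 that 0.0295% of all genes passed, and the smallest adjusted p among members was 0.552. The median difference was -0.28 log2 for the members and -0.28 for all genes, but this match is the mean of opposite gaps in the libraries. In knockdown library 1 the members' median was -0.33, against -0.19 for all genes, and in library 2 it was -0.19, against -0.34 for all genes. Footprints were lower than the control in both knockdown libraries for 31 of 50 members (62.0%), against 51.2% of all genes, and higher in both for 8 of 50 (16.0%), against 17.5%. Unadjusted p under 0.05 was reached by 4 members (RPL22, RPSA, RPL3 and RPL27A), each on the lower side, where 6.99% of all genes had such a p on that side, and by none on the higher side, against 1.86% (8.85% of all genes on either side). A shift of -0.28 in the median of all genes is part of each footprint difference below, and centring each library on its median removes it.

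**Figure D2:**
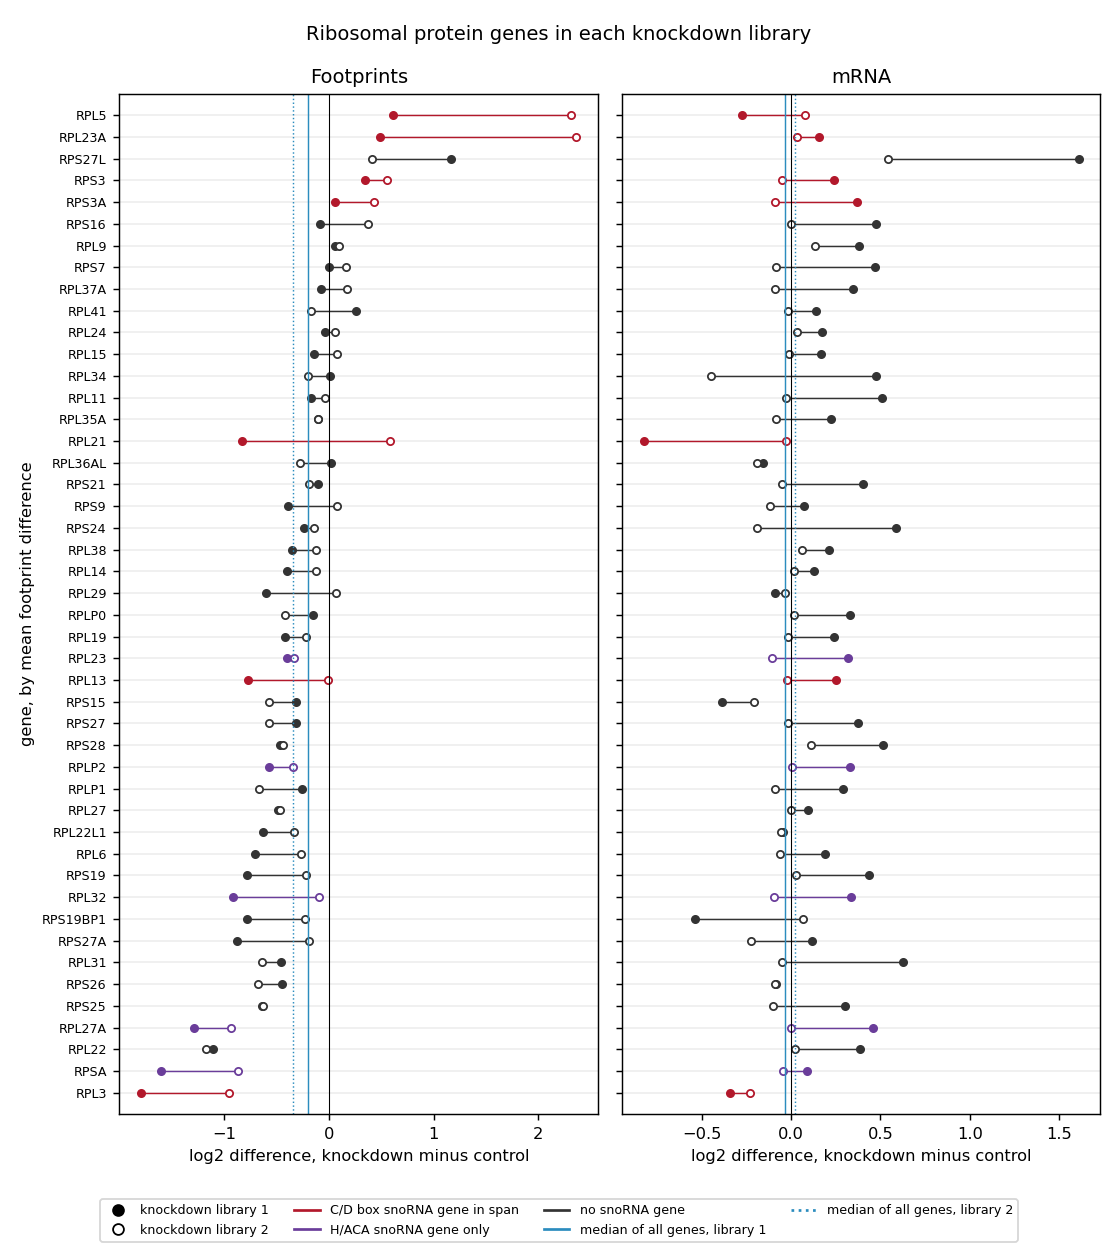
Each row is a gene (46 of the 50 are drawn) and the x axes give its log2 difference from the control in knockdown library 1 (filled) and 2 (open), for footprints on the left and mRNA on the right, with colour for the snoRNA genes in its span. The red C/D box hosts RPL5 and RPL23A lie farthest to the right in footprints at up to 2.36, RPL3 lies farthest to the left at -1.79, and most mRNA points of library 1 lie right of 0.

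RPSA, the small-subunit protein also known as the laminin receptor (chromosome 3, 39406720 to 39412542), had footprint values of 397 and 659 in the knockdown libraries and 1203 in the control, with mRNA values of 1690 and 1540 in the knockdown libraries and 1592 in the control. Its footprint difference was -1.23 ± 0.37 (SE) log2 in limma. RPL27A (chromosome 11, 8682792 to 8689872) had footprint values of 1275 and 1626 in the knockdown libraries and 3114 in the control, a difference of -1.11 ± 0.33. RPL22 (chromosome 1, 6185020 to 6199595), an RNA-binding protein of the large subunit, had footprint values of 243 and 232 in the knockdown libraries and 525 in the control. Its difference was -1.14 ± 0.30, with the knockdown libraries nearly equal at -1.11 and -1.18, and its unadjusted limma p of 0.00770 was the smallest of the family (adjusted p = 0.552). RPL22L1, its paralog, had footprint values of 1607 and 1965 in the knockdown libraries and 2479 in the control. RPS25, without a snoRNA gene in its span, had footprint values of 2579 and 2605 in the knockdown libraries and 4024 in the control, a difference of -0.63 ± 0.30. RPL3 stood at -1.79 and -0.95 in the knockdown libraries and at -1.37 ± 0.41 in the fit. For all of these the knockdown libraries lay on the lower side of the single control library, whose own spread is unknown.

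On the higher side the 2 members with the largest differences, RPL5 and RPL23A, carried snoRNA genes, and the next, RPS27L at 0.79, carried none. RPL5, which binds 5S ribosomal RNA together with RPL11 and can restrain MDM2 (chromosome 1, 92831986 to 92841924), had footprint values of 1926 in knockdown library 1, 6237 in knockdown library 2 and 1256 in the control. Its mRNA values were 2432, 3101 and 2942 in the same order. RPL23A, which sits at the exit of the nascent chain tunnel (chromosome 17, 28719985 to 28724359), had footprint values of 1985 in knockdown library 1, 7283 in knockdown library 2 and 1415 in the control, with mRNA values of 1810, 1663 and 1623. In both genes the excess lay mainly in knockdown library 2, and their differences of 1.46 ± 0.65 and 1.43 ± 0.70 (SE) had unadjusted limma p of 0.0623 and 0.0828 (adjusted p = 0.575 for each). RPL11, the partner of RPL5, stood at -0.17 and -0.03. RPS3, a protein of the mRNA entry channel, had footprint values of 4653 and 5377 in the knockdown libraries and 3667 in the control.

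snoRNA genes lay within the span of 15 of the 50 members, and within 3.61% of all genes tested. The table of genes gives no strand, so an overlap was counted whichever strand the snoRNA gene was on. Of the 9 members with a C/D box gene, among them RPL3, RPL5, RPL13, RPL21, RPL23A, RPS3 and RPS3A, 5 were higher in footprints than the control in both knockdown libraries and 3 were lower in both. All 6 members with H/ACA genes alone, RPL23, RPL27A, RPL32, RPLP2 and RPSA among them, were lower in both libraries. Of the 35 members without such a gene, 3 were higher in both and 22 lower in both. Over all genes tested, 18.8% of hosts were higher in both and 54.3% lower, against 17.4% and 51.0% of the others. The snoRNA classes were not split over all genes. Mean footprint differences over 1 log2 in size were found for 5 of the 15 hosts and for 1 of the 35 others, RPL22, against 15.5% of all genes. Over all genes tested they were found for 18.0% of hosts and 15.4% of the others, a much smaller gap. The knockdown libraries differed from each other by over 1 log2 in 3 members, RPL5, RPL21 and RPL23A, all of them C/D box hosts. That is 6.0% of members, against 20.6% of all genes tested. RPL5 and RPL21 also carry an H/ACA gene and were counted in the C/D box class. RPL21 had footprint values of 7536 in library 1, 20054 in library 2 and 13407 in the control. The median size of the gap between the knockdown libraries was 0.47 for hosts and 0.25 for the others. Over all genes tested the corresponding gap was 0.51 for hosts and 0.50 for the others. The part of snoRNA fragments in these values was not tested.

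The large and small subunit gave similar pictures in footprints. The 30 large-subunit members had median differences of -0.38 in knockdown library 1 and -0.18 in library 2, and the 19 small-subunit members had -0.31 and -0.19. Both knockdown libraries were lower than the control for 19 of 30 large-subunit and 11 of 19 small-subunit members, and higher for 3 of 30 and 5 of 19. Without snoRNA hosts the medians were -0.21 and -0.18 for the 20 remaining large-subunit members and -0.32 and -0.21 for the 14 remaining small-subunit members. The order of the subunits in library 1 thus turned with the hosts left out, and no difference between subunits was claimed or tested. Among the stalk proteins, which recruit elongation factors, RPLP0, RPLP1 and RPLP2 had mean differences of -0.29, -0.46 and -0.46. With RPL3 left out, the members made up 13.4% and 16.4% of the remaining footprint values in the knockdown libraries and 14.0% in the control.

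**Figure D3:**
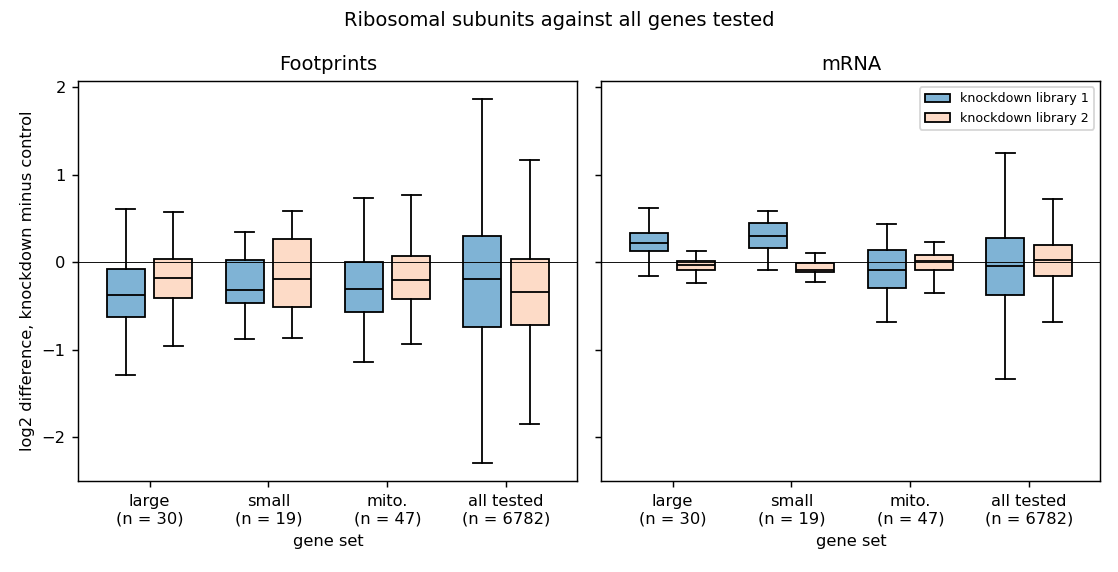
Boxes give the median, quartiles and whiskers to 1.5 interquartile ranges of the log2 difference from the control (y axis) in knockdown library 1 and 2, for large-subunit, small-subunit and mitochondrial ribosomal protein genes and all genes tested (x axis). The mRNA boxes of both cytosolic subunits lie above 0 in library 1, with medians of 0.22 and 0.30, and near 0 in library 2.

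For mRNA the comparison asked whether the abundance of these transcripts differed. No member passed in limma, and no gene of the table did (0.0% of all genes). An unadjusted p under 0.05 was reached by 0.472% of all genes, 0.177% on the higher and 0.295% on the lower side. No member had an unadjusted p under 0.05, and the smallest was 0.0863 (RPS27L, limma adjusted p = 1.00). The libraries differed as a group: in knockdown library 1, 41 of 50 members (82.0%) stood above the control, against 46.9% of all genes, while 15 of 50 (30.0%) did so in library 2, against 54.0%. The members' medians were 0.24 log2 in library 1 and -0.04 in library 2, and those of all genes were -0.04 and 0.02. Members higher in both libraries numbered 13 (26.0%, against 30.9% of all genes) and members lower in both numbered 7 (14.0%, against 29.9%). The difference in library 1 was thus seen across most of the family and was not repeated in library 2. These shares are set against all genes and not against genes of like mRNA value, although 49 of the 50 members lay in the top decile of control mRNA values. Whether the difference goes with the family or with high mRNA values was not tested.

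Subunits shared that pattern, with library 1 medians of 0.22 for large and 0.30 for small subunit, and library 2 medians of -0.02 and -0.09. The members' share of all mRNA values was 24.4% in library 1, 21.1% in library 2 and 21.7% in the control. Other TOP-class mRNAs stood at 0.31 in library 1 and 0.00 in library 2 (17 genes), with 15 of 17 higher in library 1. Mitochondrial ribosomal proteins, which are not of the TOP class and serve the ribosome of the mitochondrion, stood at -0.08 and 0.02 (47 genes), with 19 of 47 higher in library 1. Whether the library, its hairpin or its culture goes with this shift cannot be told apart.

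RPS27L (chromosome 15, 63148249 to 63157477) was the member with the largest mRNA difference. Its mRNA values were 76.7 and 36.0 in the knockdown libraries and 24.4 in the control, and its footprint values were 572 and 338 in the knockdown libraries and 254 in the control. The mRNA difference was 1.08 ± 0.53 (SE) log2, with 1.61 in library 1 and 0.54 in library 2, and its footprint difference was 0.79 ± 0.53. RPS27, the ubiquitous relative of RPS27L, had mRNA differences of 0.38 and -0.02. RPS28 and RPL9 followed on the higher side with mean mRNA differences of 0.31 and 0.26. RPS19, which is mutated in Diamond-Blackfan anaemia, had mRNA values of 904 in library 1, 680 in library 2 and 667 in the control, and RPS16 had 2042, 1469 and 1468 in the same order. In both genes library 2 was close to the control, as in most of the family. On the lower side RPL21 had mRNA values of 2437 in library 1, 4241 in library 2 and 4323 in the control. RPS15 had 3188 and 3603 in the knockdown libraries and 4165 in the control, and RPL36AL had 274 and 267 in the knockdown libraries and 305 in the control. RPS26, near the mRNA exit of the small subunit, had 759 and 754 in the knockdown libraries and 804 in the control.

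The difference in translation efficiency, footprint difference minus mRNA difference, was tested in limma as an interaction term. No member and no gene passed (0.0% of all genes), and the smallest adjusted p was 0.996 among members. RPL22 and RPL27A had unadjusted p under 0.05, both on the lower side, where 2.14% of all genes had one, against 0.59% on the higher side and 2.73% on either. Their differences were -1.35 ± 0.42 and -1.34 ± 0.47 (SE) log2. RPL22 had footprint to mRNA ratios of 0.471 and 0.578 in the knockdown libraries and 1.33 in the control, and RPL27A had 0.983 and 1.72 in the knockdown libraries and 3.29 in the control. RPSA, RPL3 and RPL31 followed with differences of -1.25, -1.08 and -0.83.

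Taken by library number, efficiency was lower than the control in both pairs for 29 of 50 members (58.0%), against 52.0% of all genes, and higher in both for 3 (6.0%), against 18.7%. These 3 were RPL5, RPL23A and RPS3, all C/D box hosts, with mean differences of 1.56 ± 0.92, 1.33 ± 0.98 and 0.35 ± 0.42 (SE). The members' median was -0.52 in pair 1 and -0.14 in pair 2, and that of all genes was -0.18 and -0.36. The family therefore lay below the median gene in pair 1, where its mRNA was higher than the control, and above it in pair 2. The numbers are not stated in the labels to mark shared cultures.

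YTHDF1 is recruited by m6A, so the deposited m6A peak lists were searched for these mRNAs. Peaks were listed for 24 of 50 members in replicate 1 and for 28 in replicate 2, against 77.1% and 78.6% of all genes tested, and for 23 in both replicates (46.0%), against 72.5%. A peak in either replicate was listed for 29 members, against 83.3% of all genes, and the 679 genes in the top decile of control mRNA values had one in 78.9%. Mitochondrial ribosomal proteins had one in 35 of 47 (74.5%). Members that were listed had few peaks, 1.38 and 1.32 per listed gene in the 2 replicates, against 2.89 and 2.87 over all genes tested. The median summit lay at base 591 and 581 of the transcript for members and at 1569 and 1579 for all genes, on transcripts that the lists do not name, and transcript length was not compared. Every one of the 5972 windows that has the same start and stop in both lists also has the same input signal, so the replicates share an input there.

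**Figure D4:**
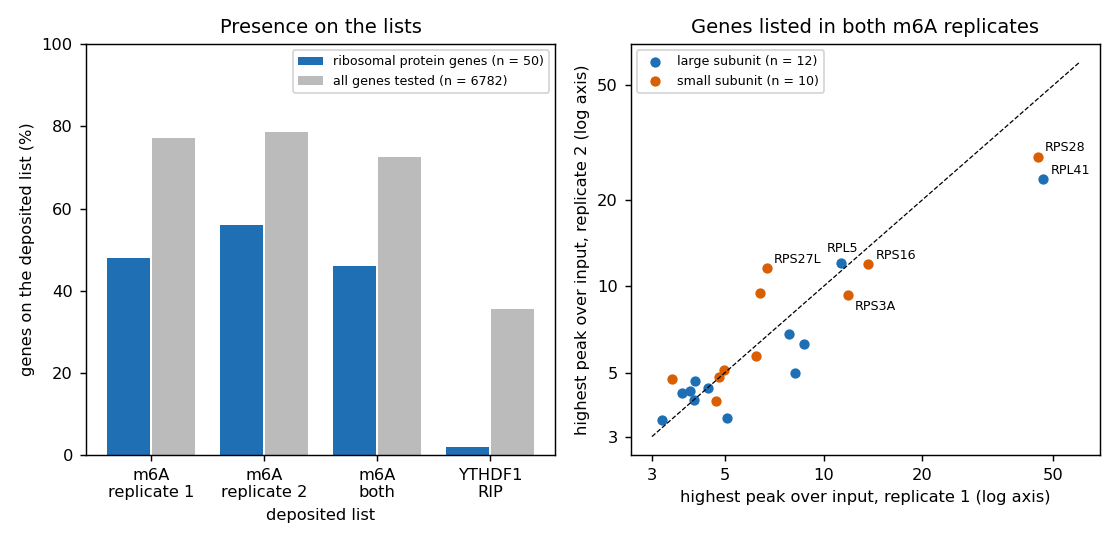
On the left, bars give the percent of ribosomal protein genes and of all genes tested that are on each deposited list, with 2.0% against 35.6% on the RIP list. On the right, each point is a ribosomal protein gene listed in both m6A replicates (22 of 23 are drawn), with its highest peak over input in replicate 1 (x axis) and 2 (y axis, both log axes), and RPS28 and RPL41 lie apart at the upper right.

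Overlapping windows in both replicates were listed for 22 members, 13 of the 30 large-subunit and 9 of the 19 small-subunit genes. The strongest were RPL41 and RPS28, as the authors' deposited ratios of peak over input. RPL41, the smallest protein of the ribosome, had 1 window from base 300 to 525 in each replicate, at ratios of 46.7 and 23.6 with the motif GAACT at base 402. RPS28 had windows from base 550 to 750 and 550 to 825 at ratios of 44.9 and 28.3. RPS3A had 3 windows in each replicate with highest ratios of 11.9 and 9.29. RPL5 had 2 windows, at 11.3 and 12.03 for the first and 4.74 and 5.53 for the second. RPS16 had 1 at 13.7 and 11.9 with the motif GGACC at base 485. Input signal was low in the first RPL5 window (13.5), in the RPS16 window (26.1) and in the first RPS3A window (26.2), which is not its highest by ratio. In the RPS28 windows it was 64.0 in both replicates, against 233 in those of RPL41. The RPS28 summits also differed, at base 589 and 691, as did the motifs, AAACA and GGACC. Input signal was 147 in the second RPL5 window, and its medians over members' peaks were 124 and 106 in the 2 replicates. RPL27A had 5 windows in replicate 2, between base 2000 and base 3950, and none in replicate 1. These lie far past the members' median summits of 591 and 581. Since the lists name no transcript, whether they lie on the spliced mRNA was not tested. RPSA was listed in both replicates, but its windows at base 750 to 800 and base 125 to 175 did not overlap. The median ratio of members' peaks was 4.74 and 4.84, against 5.63 and 5.48 for peaks of all genes tested, and the motif began with GGAC in 6 of 33 and 5 of 37 peaks of members, against 30.7% and 29.5% of all peaks.

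Members with and without m6A windows were set side by side as a description. The 22 with overlapping windows had median differences of -0.10 in footprints and 0.11 in mRNA, and the 21 listed in neither replicate had -0.26 and 0.10. Their median control efficiencies were 0.88 and 1.32 on the log2 scale. Members listed without overlapping windows were in neither set: RPL6, RPL23, RPL27, RPL27A, RPLP2, RPS19BP1 and RPSA. Their footprint differences were -0.49, -0.37, -0.48, -1.11, -0.46, -0.51 and -1.23, in that order. The medians above therefore do not compare all listed members with the unlisted ones. RPL41 and RPS28 had footprint differences of 0.05 ± 0.31 and -0.45 ± 0.30 (SE). Of the members with the lowest footprints relative to the control, RPL3 at -1.37 had overlapping windows and RPL22 at -1.14 was listed in neither replicate. RPSA at -1.23, listed in both replicates without overlap, and RPL27A at -1.11, listed in replicate 2, were in neither set.

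Recovery with the YTHDF1 antibody was deposited as a list of 3939 genes whose ratios of immunoprecipitate to input FPKM begin at 1.5 and have a median of 2.28. Of the 50 members 1 was on the list (2.0%), against 35.6% of all genes tested and 17.1% of those in the top decile of control mRNA values. That member was RPL29, a large-subunit protein (chromosome 3, 51993522 to 51995895), so the family was not wholly absent. RPL29 had 571 FPKM in the immunoprecipitate and 357 FPKM in the input, a deposited ratio of 1.60 that lay at percentile 8.05 of the list and close to its lower limit. It had 1 m6A window in each replicate, at ratios of 7.85 and 6.84, and its footprint difference was -0.60 in knockdown library 1 and 0.07 in library 2. None of the 47 mitochondrial ribosomal proteins and 3 of 17 other TOP-class mRNAs were on the list. A gene off the list has no value, so ratios of the other 49 members are unknown beyond their not being listed, and the RIP has no replicate.

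RPS27A, a small-subunit protein made as a fusion with ubiquitin, had footprint values of 957 and 1541 in the knockdown libraries and 1760 in the control. Of the ribosomal proteins outside the symbol rule, FAU and RACK1 had no row in the expression table. The 17 other TOP-class mRNAs tested, of 33 listed, had median footprint differences of -0.27 in library 1 and -0.10 in library 2, with 10 of 17 lower in both. EEF2 and PABPC4 were singled out after their values were seen. EEF2, the elongation factor of translocation, had footprint values of 7749 and 10767 in the knockdown libraries and 27004 in the control, with mRNA values of 1671 and 1363 in the knockdown libraries and 1358 in the control. PABPC4, a poly(A)-binding protein, had footprint values of 548 and 342 in the knockdown libraries and 151 in the control. The 47 mitochondrial ribosomal proteins had medians of -0.30 and -0.20, with 31 lower in both.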

How the data were processed

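HCT116 ribosome profiling and mRNA-seq (3 libraries each), YTHDF1 RIP with input and 2 m6A-seq replicates were used. Per the submitters' processing notes STAR and GRCh38 were used, and no source used here names versions or the peak caller. Expression values are a signal per gene, deposited by the authors without depth. Genes low in the control are missing from that table, by its values, though a control footprint value of 0.631 did not keep COL1A1 out. Why 41 symbols of the rule have no row is not known. The RIP table holds FPKM and a ratio deposited by the authors, and the m6A lists hold deposited peak signal and peak over input ratio, called per replicate, with ratios that by the values are at least 3.

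Here 12 rows with damaged gene names were left out, values became log2(value + 1), so folds of low genes come out too small, and 132 genes with a mean under 1 were filtered out, leaving 6782. The filter, like the members, lists and tests, was chosen with earlier results of these data known. limma 3.58.1 (trend, R 4.3.3) fitted 1 mean per assay and condition with 2 residual degrees of freedom, 2-sided, adjusted over all genes. The single control of each assay was taken to vary as much as the knockdown libraries do. P-values measure the spread between these libraries, which may be technical. The fit was tested on simulated data with footprint changes larger than that of any member. That test therefore does not show that differences of the members' size could be found. RefSeq gave coordinates, snoRNA genes wholly inside a span, and start sequences. Named were the highest and lowest 5 control ratios, up to 5 higher and 5 lower members per contrast among those with knockdown libraries on the same side of the control, the 5 strongest m6A members per replicate and a fixed set of members, while the spans, snoRNA classes and comparisons by m6A status were chosen after seeing values. Alternatives covered pseudocount, filter, centring, quantile normalisation, left-out libraries, the replicate block, separate assays, peak ratio and input level. Single values of 4 members and of a related gene are not reported here and their points are left out of the plots by gene, while counts and medians include all members.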

Additional observations from a re-analysis of the deposited data

How the results depend on the processing

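No member passed the adjusted threshold in footprints, mRNA or translation efficiency under any of the alternatives run, leaving out any single knockdown library included (0 members, lowest and highest). The 28 single-member differences followed kept their direction in all 272 settings, with a smallest limma adjusted p of 0.0864. Members were followed only where both knockdown libraries lay on the same side of the control. Leaving out a library, another pseudocount or the block could therefore hardly reverse a direction, so this count is not a test of the directions. Centring and quantile normalisation could have reversed some and did not. The members' median footprint difference of -0.28 became 0.014 with each library centred on the median of all genes and -0.066 with quantile normalisation within each assay, since the median of all genes itself lies at -0.28. The median efficiency difference of -0.34 became -0.064 with centring. Leaving out 1 knockdown library at a time gave -0.33 to -0.19 for the footprint median, -0.04 to 0.24 for the mRNA median and -0.53 to -0.25 for the efficiency median, and the mRNA median was -0.04 without mRNA library 1. The median control efficiency of 0.93 became -0.49 as a share of totals without the 10 highest genes, which moves all genes alike (to -0.34). Without snoRNA hosts or without RPS19BP1 and the paralogs, settings chosen after seeing the data, the medians kept their direction. With a peak ratio of at least 5, 15 members had an m6A peak, against 29. With the replicate number as a block, 0 members passed in limma in any contrast, and members with an unadjusted p under 0.05 numbered 8 in footprints, 1 in mRNA and 0 in efficiency, against 4, 0 and 2 without the block. RPL22 and RPL27A thus had unadjusted limma p of 0.0590 and 0.0629 for efficiency with the block. The labels do not say that the numbers pair cultures, and the difference between knockdown libraries correlated at 0.37 across genes between assays. The depth of the table is unknown, so which differences it could resolve is not known.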
